A study of Homo sapiens with 8 samples.

Results

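The 10 genes described here were selected on large differences between L1CAM shRNA and control shRNA, 5 with lower values (PLLP, GPR64, UNC13A, SORL1 and SIRPB1) and 5 with higher values (STRA6, GPX3, NWD1, COCH and MNX1). They are 10 of the 23368 gene symbols in the table, all 10 were found in it, and all 10 passed the filter of a mean normalized count of at least 10 that left 13010 genes. The values that chose them are the normalized counts under both shRNAs, so their differences between the shRNAs are described below without a test. The tests concern the response to the brain slice under each shRNA and the interaction, which is the difference between the dish and the slice in the effect of the L1CAM shRNA. The interaction is computed from the differences that chose the genes, so its test is not free of that choice.

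Messenger RNA bound to ribosomes was sequenced from H2030-BrM, a brain-metastatic derivative of the lung adenocarcinoma line H2030. All cells carried pLVX-EGFP-Rpl10a-IRES-hygro, which puts a green fluorescent tag on a ribosomal protein, and tagged ribosomes were pulled down with antibodies to the tag (translating ribosome affinity purification). Cells with an shRNA to luciferase (control shRNA) or to L1CAM (L1CAM shRNA) were kept in a dish or on a slice, giving 4 groups of 2 libraries. Dish cells grew in RPMI medium with fetal bovine serum and were collected at 0 h, and slice cells were collected 48 h after seeding onto an organotypic slice of mouse brain, which the series' design text places in a study of vascular cooption. Medium, serum, substrate and time thus differ together between dish and slice and cannot be told apart. There is 1 cell line, and the labels name the shRNA by its target only. The libraries are labelled as biological replicates, but whether each came from its own culture is not said, and the spread behind the p-values is that between these libraries, which may be technical. In such bulk libraries, fewer cells that translate a transcript and less of it per cell cannot be told apart.

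L1CAM is an adhesion molecule of the immunoglobulin superfamily, best known from growing axons, that tumour cells can use to hold on to blood vessels and to spread along them. The 10 genes do not form a single pathway. They code for membrane proteins (PLLP, GPR64, SIRPB1, SORL1 and STRA6), a synaptic priming factor (UNC13A), secreted proteins (GPX3 and COCH), a protein with nucleotide-binding and WD-repeat domains (NWD1) and a homeobox transcription factor (MNX1). The values are read counts divided by a size factor for each library, and 13486212 to 16734651 reads were recovered per library. They are called normalized counts below, and a log2 fold change is taken on log2 of the normalized count plus 1, with the standard error (SE) of a limma fit.

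The sequences just upstream of the start sites were examined because the 10 genes moved in 2 opposite directions. RefSeq promoter windows on GRCh38.p14, a later build than the hg19 named in the submitters' processing notes, matched 8 of the 10 genes, all but SIRPB1 and NWD1. The 250 bases before the start are shown for the 2 lower and the 2 higher genes with the largest slice differences among those matched. Capitals mark letters of the motifs searched on both strands, which were the CCAAT box, the GC box (GGGCGG), the TATA box (TATAAA), the core site of nuclear receptors such as the retinoic acid receptors (AGGTCA) and the E-box (CACGTG). Each motif was counted on its own, overlaps with the others included.
GPR64 (annotated as ADGRG2, chrX:19122469-19122718, minus strand): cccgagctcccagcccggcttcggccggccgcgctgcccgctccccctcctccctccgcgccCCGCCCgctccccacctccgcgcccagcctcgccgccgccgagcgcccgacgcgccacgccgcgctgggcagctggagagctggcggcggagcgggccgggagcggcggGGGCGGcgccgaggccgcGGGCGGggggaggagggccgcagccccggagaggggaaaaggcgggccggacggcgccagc
PLLP (chr16:57284673-57284922, minus strand): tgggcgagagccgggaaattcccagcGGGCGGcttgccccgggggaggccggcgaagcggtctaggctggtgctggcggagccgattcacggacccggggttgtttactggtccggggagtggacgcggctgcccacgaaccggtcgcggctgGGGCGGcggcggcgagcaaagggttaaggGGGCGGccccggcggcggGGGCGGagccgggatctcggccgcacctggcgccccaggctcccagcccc
STRA6 (most upstream of 5 start sites, chr15:74212260-74212509, minus strand): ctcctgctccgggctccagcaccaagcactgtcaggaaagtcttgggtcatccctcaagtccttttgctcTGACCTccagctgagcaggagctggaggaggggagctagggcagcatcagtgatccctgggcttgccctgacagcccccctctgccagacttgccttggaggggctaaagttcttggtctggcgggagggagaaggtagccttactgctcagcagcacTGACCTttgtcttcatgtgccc
GPX3 (chr5:151020341-151020590, plus strand): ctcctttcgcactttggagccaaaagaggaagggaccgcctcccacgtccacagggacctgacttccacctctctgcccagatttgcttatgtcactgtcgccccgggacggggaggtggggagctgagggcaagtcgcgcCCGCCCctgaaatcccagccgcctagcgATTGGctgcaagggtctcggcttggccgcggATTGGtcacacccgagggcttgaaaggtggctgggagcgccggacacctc

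The GPR64 window held 3 GC boxes and 84.8% G or C, and the PLLP window held 4 GC boxes and 76% G or C. UNC13A and SORL1 windows held 2 GC boxes and 1 E-box each, at 72% and 80.4% G or C. The 4 matched lower genes therefore all had at least 2 GC boxes, which 23.7% of the 35116 windows of the same length had, and 42.6% had at least 1. Those windows were not matched to the 4 in G or C content, so these shares do not set the 4 apart. The most GC boxes, 5, were in a window of MNX1, a higher gene. Among the higher genes, the STRA6 window shown held 2 copies of AGGTCA and 59.6% G or C. Of the other 4 STRA6 windows 1 held a single copy and 3 held none. AGGTCA was found at least once in 12.1% of all windows, and 1.01% had 2 or more copies. The window shown is 1 of 5 for this gene and all windows were not matched to it in G or C content. These shares therefore do not set it apart. GPX3 held 2 CCAAT boxes and 1 GC box at 64.4% G or C, and the MNX1 window at its upstream start held 2 CCAAT boxes and 5 GC boxes at 78.8%. The other MNX1 window held none of the motifs, at 68.4% G or C. COCH held 1 TATA box at 77.2% G or C. CCAAT was found at least once in 32% of all windows, and 9.53% had 2 or more copies. TATAAA was found in 10.7% and CACGTG in 6.34%. The median window had 58% G or C, with the highest decile starting at 75.2%. These are matches of letters, with no binding measured here.

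The targeted gene was checked first. L1CAM had normalized counts of 482 and 440.4 in the control dish libraries and 451 and 438 in the control slice libraries. With L1CAM shRNA it had 126 and 88.3 in the dish and 74.7 and 65.4 on the slice, which is 23.3% and 15.8% of the control means, and no library overlapped between the shRNAs. The log2 fold change was -2.11 ± 0.21 (SE, n = 2 per group, limma adjusted p = 0.00865) in the dish and -2.65 ± 0.21 (limma adjusted p = 0.00164) on the slice. The slice call held without any single library (highest adjusted p = 0.0481), whereas the dish call was lost without any one of the 4 dish libraries (highest adjusted p = 0.191). Across all genes, 40 passed in the dish (0.307%) and 84 on the slice (0.646%).

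All 10 genes had non-overlapping values between the shRNAs in both cultures, in the direction they were chosen for. That pattern was shown by 14.5% of the 13010 genes in the lower direction and 13.9% in the higher direction, and since it is what the choice used, nothing is read from it. The rule gives no threshold, so the genes were placed by rank. Ordered by the smaller of the dish and slice log2 differences among the 4606 genes lower in both, PLLP was at rank 2, GPR64 at 3, UNC13A at 6, SIRPB1 at 70 and SORL1 at 245. Among the 4749 genes higher in both, STRA6 was at rank 11, GPX3 at 23, NWD1 at 28, COCH at 36 and MNX1 at 515. SORL1 and MNX1 were thus large differences on the slice and small ones in the dish, where they ranked 350 and 809 in their directions.

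PLLP encodes plasmolipin, a tetraspan membrane protein of myelin and of the apical membrane of epithelia. It had 1014 and 994 normalized counts in the control dish libraries, 1117 and 1131 in the control slice libraries, 167 and 134 with L1CAM shRNA in the dish and 140.2 and 227 with it on the slice. The 4 libraries with L1CAM shRNA all lay far below the 4 control libraries, in both cultures alike. The mean was 6.67-fold lower in the dish and 6.12-fold lower on the slice (log2 fold changes of -2.74 and -2.65, SE 0.23).

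GPR64 encodes an adhesion G protein-coupled receptor best known from the fluid-handling epithelium of the epididymis. It had 161 and 193 normalized counts in the control dish, 276 and 254 on the control slice, 31.1 and 26.1 with L1CAM shRNA in the dish and 37.8 and 22.6 with it on the slice. The control libraries were higher on the slice than in the dish, while the L1CAM shRNA libraries of the 2 cultures overlapped. The mean was 6.20-fold lower in the dish and 8.76-fold lower on the slice (log2 fold changes of -2.59 and -3.13, SE 0.27). The L1CAM shRNA values rest on 19 to 41 reads per library.

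UNC13A encodes a protein that primes synaptic vesicles for release. It had the values 1717 and 1601 in the control dish, 3750.2 and 3755 on the control slice, 414 and 385 with L1CAM shRNA in the dish and 770.2 and 515 with it on the slice, as normalized counts. Each shRNA gave higher values on the slice than in the dish, and within each culture both L1CAM shRNA libraries were below both control libraries. The mean was 4.15-fold lower in the dish and 5.84-fold lower on the slice (log2 fold changes of -2.05 and -2.57, SE 0.19).

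SORL1 encodes a sorting receptor with a VPS10 domain that guides the amyloid precursor protein through endosomes. Its normalized counts were 1448 and 1463 in the control dish, 925 and 892 on the control slice, 1029 and 804 with L1CAM shRNA in the dish and 304 and 152 with it on the slice. Both L1CAM shRNA slice libraries were below the other 6 libraries, and the control slice libraries lay in the range of the L1CAM shRNA dish libraries. The mean was 1.59-fold lower in the dish and 3.98-fold lower on the slice (log2 fold changes of -0.68 and -2.07, SE 0.28).

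SIRPB1 encodes an activating receptor of myeloid cells that signals through the adaptor TYROBP. It had normalized counts of 57.7 and 88.7 in the control dish, 81.2 and 68.5 on the control slice, 16.5 and 21.1 with L1CAM shRNA in the dish and 36.0 and 34.5 with it on the slice. The control libraries of the 2 cultures overlapped, and the L1CAM shRNA libraries were higher on the slice than in the dish. The mean was 3.90-fold lower in the dish and 2.12-fold lower on the slice (log2 fold changes of -1.88 and -1.06, SE 0.28). Near-identical paralogs such as SIRPA could share its reads, so its values are uncertain. SIRPA itself had log2 differences of -0.34 in both cultures (limma adjusted p = 0.497 in the dish and 0.265 on the slice).

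STRA6 encodes the receptor through which cells take up retinol from its plasma carrier. It had 37.2 and 25.5 normalized counts in the control dish, 17.2 and 15.0 on the control slice, 141 and 105 with L1CAM shRNA in the dish and 46.1 and 69.0 with it on the slice. Under either shRNA the slice libraries were below the dish libraries, and in each culture the L1CAM shRNA libraries were above the control. The mean was 3.93-fold higher in the dish and 3.58-fold higher on the slice (log2 fold changes of 1.95 and 1.75, SE 0.31). Its control slice values rest on 14 and 18 reads.

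GPX3 encodes the secreted, selenium-containing glutathione peroxidase of plasma. Its normalized counts were 42.1 and 45.3 in the control dish, 27.7 and 22.5 on the control slice, 109.9 and 149.5 with L1CAM shRNA in the dish and 78.4 and 85.7 with it on the slice. As for STRA6, dish libraries were above slice libraries under both shRNAs. The mean was 2.97-fold higher in the dish and 3.27-fold higher on the slice (log2 fold changes of 1.53 and 1.68, SE 0.24).

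COCH encodes cochlin, a secreted matrix protein of the inner ear. It had 65.5 and 108 normalized counts in the control dish, 72.6 and 80.2 on the control slice, 353 and 259.9 with L1CAM shRNA in the dish and 205 and 159 with it on the slice. The control libraries of the 2 cultures overlapped, and the L1CAM shRNA libraries were higher in the dish. The mean was 3.54-fold higher in the dish and 2.38-fold higher on the slice (log2 fold changes of 1.84 and 1.23, SE 0.28). COCH overlaps STRN3 in the RefSeq annotation, and the library kit does not mark strand, so their reads cannot be told apart where they overlap. The same holds for the antisense RNAs annotated at SORL1, COCH, MNX1 and L1CAM.

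NWD1 encodes a protein with a NACHT-like nucleotide-binding domain and WD repeats. It had 8.80 and 15.1 normalized counts in the control dish, from only 9 and 16 reads. It had 39.2 and 44.9 on the control slice, 71.5 and 56.2 with L1CAM shRNA in the dish and 145 and 77.3 with it on the slice, so that the 4 groups did not overlap one another. The mean was 5.34-fold higher in the dish and 2.64-fold higher on the slice (log2 fold changes of 2.36 and 1.32, SE 0.36). The slice difference was 0.87 without replicate 1 of the L1CAM shRNA slice libraries.

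MNX1 encodes a homeobox factor of motor neurons and of the developing pancreas. Its normalized counts were 46.0 and 49.0 in the control dish, 29.6 and 27.8 on the control slice, 56.8 and 74.3 with L1CAM shRNA in the dish and 80.3 and 73.8 with it on the slice. The control values were lower on the slice, whereas the L1CAM shRNA values of the 2 cultures overlapped. The mean was 1.38-fold higher in the dish and 2.68-fold higher on the slice (log2 fold changes of 0.44 and 1.39, SE 0.23). The dish difference was 0.25 without replicate 2 of the L1CAM shRNA dish libraries.

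The dish and slice differences between the shRNAs were set side by side. The median log2 fold change of the 5 lower genes was -2.05 in the dish and -2.57 on the slice, and that of the 5 higher genes was 1.84 and 1.39, against medians over all tested genes of 0.0077 and -0.0016. These medians follow from the choice of the genes. In the interaction test, 0 of 13010 genes passed at an adjusted p of 0.05 (0%), while 162 had an unadjusted p under 0.05, and edgeR gave 0 and 157 and DESeq2 0 and 78.

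SORL1 and MNX1 were the 2 of the 10 genes with an unadjusted p under 0.05 in limma, beside 162 of the 13010 tested genes. The interaction is the difference of the 2 shRNA effects on which the genes were chosen. SORL1 and MNX1 ranked high on the slice only (19 and 51 in their directions, against 350 and 809 in the dish). Such a choice favours a large interaction, so nothing is read from these 2 unadjusted p-values. For SORL1 the interaction was -1.39 ± 0.40 (SE, 95% interval -2.31 to -0.48, limma adjusted p = 0.970), a lower value on the slice than the dish difference would give. For MNX1 it was 0.95 ± 0.33 (SE, 95% interval 0.20 to 1.70, limma adjusted p = 0.970). In edgeR the same 2 genes had an unadjusted p under 0.05, and in DESeq2 SORL1 alone. Neither passed after adjustment, so a different effect in dish and slice was not shown for either.

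The other 8 genes had interactions between -1.04 ± 0.51 (SE) for NWD1 and 0.82 ± 0.40 for SIRPB1. The intervals for PLLP (-0.64 to 0.82), STRA6 (-1.19 to 0.79) and GPX3 (-0.64 to 0.92) all include 0 and reach well past a log2 difference of 0.5 on at least 1 side, so equal effects were not shown either. The result turned on 1 library: without replicate 1 of the L1CAM shRNA slice group, 4136 genes (31.8%) and 4 of the 10 passed (GPR64, UNC13A, SORL1 and NWD1), with an adjusted p of 3.8e-05 for SORL1. Without replicate 2 of that group, SORL1 had an interaction of -0.90 and an adjusted p of 0.370.

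Replicate 2 of the L1CAM shRNA slice group stood apart from the other libraries by transcript length. Genes in decile 10 of transcript length, the longest, where UNC13A (9838 bases) and SORL1 (10904 bases) fall, had a median deviation of -0.68 in this library from each gene's log2 mean over the 8 libraries, against 0.07 in replicate 1. In decile 9, which holds NWD1 (6964 bases), it was -0.45, and in decile 2, which holds PLLP (1512 bases) and GPX3 (1636 bases), it was 0.33. In decile 8, with GPR64, it was -0.31, in decile 3, with MNX1, 0.25, and in decile 5, with SIRPB1, STRA6 and COCH, 0.01. Replicate 2 was below replicate 1 for UNC13A, SORL1, NWD1 and GPR64 and above it for PLLP and GPX3, but it was below for MNX1, and in decile 5 it was above for STRA6 and below for COCH and SIRPB1. The part of this in the slice values was not tested. Without replicate 2, the slice difference was -1.57 for SORL1, -2.28 for UNC13A, -2.99 for PLLP and 1.76 for NWD1.

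The response to the slice was then tested under each shRNA. With control shRNA, 2 of the 10 genes passed, both higher on the slice, where 6.8% of all tested genes passed as higher and 8.03% as lower. UNC13A rose 2.26-fold (log2 fold change 1.18 ± 0.19, SE, n = 2 per group, limma adjusted p = 0.00751). NWD1 rose 3.52-fold from its low dish level (1.77 ± 0.36, limma adjusted p = 0.0167). Both calls were lost without any one of the 4 control shRNA libraries, with adjusted p-values of 0.0793 to 0.0967 for UNC13A and 0.0610 to 0.147 for NWD1.

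The other 8 genes did not pass with control shRNA. STRA6 (log2 fold change -0.90, limma adjusted p = 0.0829), GPX3 (-0.78, 0.0624), MNX1 (-0.71, 0.0747), SORL1 (-0.68, 0.141) and GPR64 (0.58, 0.179) had values that did not overlap between dish and slice. PLLP (0.16, limma adjusted p = 0.668) was also without overlap, by a small margin, and SIRPB1 (0.06, 0.910) and COCH (-0.14, 0.776) overlapped. With 2 libraries against 2 such separation was common: 39.8% of all tested genes were higher on the control slice without overlap and 37.3% lower. The spread is shared by all groups, and the replicates of the L1CAM shRNA slice group differed most (SD of the log2 differences over genes of 0.64, against 0.22 to 0.30 in the other 3 groups). Without either replicate of that group, or in a fit of the 4 control libraries alone, 7 of the 10 passed, where 46.8%, 47% and 52.3% of all tested genes passed: UNC13A, NWD1 and GPR64 higher and SORL1, STRA6, GPX3 and MNX1 lower.

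With L1CAM shRNA, 3 of the 10 genes passed, where 10.1% of all tested genes passed as higher and 11.2% as lower. SORL1 fell 4.01-fold (log2 fold change -2.07 ± 0.28, SE, n = 2 per group, limma adjusted p = 0.00320). STRA6 fell 2.14-fold (-1.10 ± 0.31, limma adjusted p = 0.0357) and UNC13A rose 1.61-fold (0.66 ± 0.19, limma adjusted p = 0.0407). The SORL1 call was lost without replicate 1 of the L1CAM shRNA dish group (adjusted p = 0.0546). The calls of STRA6 and UNC13A were lost without any one of the 4 control libraries or the 2 L1CAM shRNA dish libraries, with adjusted p-values up to 0.217 and 0.188. The value for UNC13A was 0.37 without replicate 1 of the L1CAM shRNA slice group and 0.95 without replicate 2. Both calls were also lost with no filter on low values (0.0658 and 0.0586) and in a fit of the 4 L1CAM shRNA libraries alone (adjusted p = 0.0974 and 0.190).

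SIRPB1 (log2 fold change 0.88, limma adjusted p = 0.0547), COCH (-0.74, 0.0856), GPX3 (-0.64, 0.0913) and NWD1 (0.73, 0.177) did not pass with L1CAM shRNA. Their dish and slice values did not overlap, which held for 28% of all tested genes as higher on the slice and 28.7% as lower. PLLP (0.25, 0.449), MNX1 (0.24, 0.480) and GPR64 (0.04, 0.934) overlapped between dish and slice. The slice responses and the differences between shRNAs share their libraries, so the 2 kinds of comparison are not independent of each other.

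Genes related to each of the 10 were examined in 11 lists with 213 entries, of which 122 were tested. In the comparison of the shRNAs, 1 of the 122 passed in the dish and on the slice, in both cases TGM2, a transglutaminase whose gene is induced by retinoic acid. It had 1273 and 1133 normalized counts in the control dish, 953 and 950.1 on the control slice, 409 and 495 with L1CAM shRNA in the dish and 505 and 433 with it on the slice. It fell by 1.42 ± 0.16 on the log2 scale (SE, limma adjusted p = 0.0170) in the dish and by 1.02 ± 0.16 (limma adjusted p = 0.0423) on the slice. Both calls were lost without any one of the 4 control libraries or the 2 L1CAM shRNA dish libraries, with adjusted p-values up to 0.354 and 0.436.

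Beside STRA6, the retinoid transport and signalling list had 13 tested genes, whose median log2 difference between the shRNAs was -0.03 in the dish and -0.24 on the slice, and TGM2 was the 1 of 13 that passed in each. On the control slice, 1 of the 13 rose, the receptor RXRA (0.61, limma adjusted p = 0.0315), and 2 fell: DHRS3, a retinaldehyde reductase (-1.23, limma adjusted p = 0.0126), and CYP26A1, which degrades retinoic acid (-1.25, limma adjusted p = 0.0215). There 6.8% of all tested genes rose and 8.03% fell. With L1CAM shRNA 0 rose and 4 fell, DHRS3 (-1.44, limma adjusted p = 0.00511), RDH11 (-0.59), CYP26B1 (-0.66) and the retinoic acid receptor RARB (-1.73, limma adjusted p = 0.0198), where 11.2% of all tested genes fell. Without replicate 2 of the L1CAM shRNA slice group CYP26B1 had -0.37. The list's median on the slice was -0.30 with control shRNA and -0.57 with L1CAM shRNA, against 0.013 and -0.0019 over all tested genes. STRA6 itself was lower on the slice under both shRNAs, as given above.

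Beside GPX3, the 15 tested glutathione peroxidases and selenoproteins had 0 genes that passed between the shRNAs, with medians of 0.06 in the dish and 0.21 on the slice. On the control slice 2 rose, SEPP1 (1.23, limma adjusted p = 0.0323) and SEP15 (0.52, limma adjusted p = 0.0324), and SELK fell (-0.79, limma adjusted p = 0.0182). There 6.8% of all tested genes rose and 8.03% fell. With L1CAM shRNA 5 rose (GPX4, SEPW1, SEPHS2, SEP15 and SEPP1) and 2 fell (GPX8 and TXNRD1), with GPX4 at 1.11 (limma adjusted p = 0.0166), where 10.1% of all tested genes rose and 11.2% fell. The list's medians on the slice were 0.20 and 0.23. Without replicate 2 of the L1CAM shRNA slice group, GPX4 had 0.69, SEPW1 0.68 and TXNRD1 -0.42. With 1 library left out at a time SEPP1 was between 0.66 and 1.56 with L1CAM shRNA. SEPP1, which carries selenium in plasma, thus had the opposite sign to GPX3 on the slice.

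Beside PLLP, 0 of 11 tested genes of the MAL and CMTM tetraspan family passed between the shRNAs, with medians of -0.30 in the dish and -0.26 on the slice. On the slice 2 rose and 1 fell under each shRNA. Of all tested genes, 6.8% rose and 8.03% fell with control shRNA, and 10.1% and 11.2% with L1CAM shRNA. CMTM3 rose by 1.13 with control shRNA (limma adjusted p = 0.00597) and by 1.23 with L1CAM shRNA (limma adjusted p = 0.00320), and MARVELD1 by 0.75 and 1.01 (limma adjusted p = 0.0111 and 0.00302). Their calls with L1CAM shRNA were the 2 of 30 over all lists that held without any single library, and 0 of the 14 with control shRNA did. Leaving out 1 library moved 8 of the 30 values by over 1.5 times. MYADM fell by 0.72 and 0.88 (limma adjusted p = 0.0201 and 0.00743).

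Beside GPR64, 0 of 16 tested adhesion G protein-coupled receptors passed between the shRNAs or on the control slice, and GPR98 fell on the slice with L1CAM shRNA (-1.50, limma adjusted p = 0.0328). Their medians were -0.08 in the dish and -0.19 on the slice between the shRNAs, and the 3 with the smallest p-values, GPR56, LPHN1 and CELSR3, had dish differences of -0.22, 0.39 and 0.08. Beside SORL1, 0 of 19 tested genes of sorting and lipoprotein receptors with retromer passed between the shRNAs (medians 0.12 and -0.15) and 0 on the control slice. With L1CAM shRNA LRP3 rose on the slice (0.75, limma adjusted p = 0.0340), and VLDLR (-2.95, limma adjusted p = 0.0105), VPS35 (-0.54, limma adjusted p = 0.0274) and APP, the amyloid precursor protein (-0.92, limma adjusted p = 0.0138), were among those that fell beside SORL1. The list's median on the slice was 0.03 with control shRNA and -0.30 with L1CAM shRNA, and LRP4 (-0.75) and LRP12 (-0.33) did not pass. LRP3 had 0.44 without replicate 2 of the L1CAM shRNA slice group. Of all tested genes, 10.1% rose and 11.2% fell on the slice with L1CAM shRNA, and 6.8% and 8.03% with control shRNA.

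Beside UNC13A, 0 of 16 tested genes of presynaptic release passed between the shRNAs, with medians of 0.17 and 0.0081. CADPS2, another vesicle-priming protein, had the smallest p among them, with differences of 1.09 in the dish (limma adjusted p = 0.0546) and 0.99 on the slice (limma adjusted p = 0.0654), opposite in sign to UNC13A. On the control slice VAMP1 rose (0.78, limma adjusted p = 0.0457) and RIMS2 fell (-1.23, limma adjusted p = 0.0231). With L1CAM shRNA STX1A, VAMP2, CPLX1 and RAB3A rose by 0.75 to 0.98 and RIMS2 fell (-1.40, limma adjusted p = 0.0116). Over all tested genes 10.1% rose and 11.2% fell with L1CAM shRNA, and 6.8% and 8.03% with control shRNA. UNC13A rose under both shRNAs. Without replicate 2 of the L1CAM shRNA slice group VAMP2 had 0.45, CPLX1 0.60, STX1A 0.61 and RAB3A 0.79.

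The remaining lists had 0 genes that passed between the shRNAs. For the slice calls below, 6.8% of all tested genes rose and 8.03% fell with control shRNA, and 10.1% and 11.2% with L1CAM shRNA. The SIRP list had 4 tested genes (medians -0.23 and -0.35), with CD47 at -0.19 and -0.29 and PTPN11 at -0.26 and -0.77, and SIRPA rose on the slice by 0.63 with control shRNA (limma adjusted p = 0.0217) and by 0.64 with L1CAM shRNA (limma adjusted p = 0.0164). The NACHT list beside NWD1 had 6 (medians 0.14 and -0.23), with NLRX1 at 0.21 and 0.28 and TEP1 at -0.46 and -0.88, and NLRC5 rose on the control slice (0.91, limma adjusted p = 0.0207). The LCCL and von Willebrand A domain list beside COCH had 6 (medians 0.38 and 0.24), with DCBLD2 at 1.13 and 1.24 (limma adjusted p = 0.139 and 0.0805), MATN2 at 1.19 and 0.58, and VWA5A at -0.07 and -0.60, and CRISPLD1 fell on the slice with L1CAM shRNA (-0.93, limma adjusted p = 0.0300, and -0.53 without replicate 2 of the L1CAM shRNA slice group). The homeobox list beside MNX1 had 14 (medians -0.06 and 0.0091), with PDX1 at 0.19 and 0.90 and EN2 at 0.07 and 0.02, and NKX2-2 rose on the slice by 1.02 and 1.22 (limma adjusted p = 0.0217 and 0.00916) and HOXC6 by 0.59 with L1CAM shRNA (limma adjusted p = 0.0380). The L1 family besides L1CAM had NFASC (0.02 and -0.65) and NRCAM (-0.28 and -0.35), with medians of -0.13 and -0.50, and NFASC fell on the slice with L1CAM shRNA (-1.10, limma adjusted p = 0.0211).

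The likeness of profiles was described over the 8 libraries among 11286 genes with a mean of at least 50. Closest to the mean standardized profile of the 5 lower genes were ARL6IP5 (Pearson r = 0.997), MED12 (0.993) and NTN4 (0.991), and L1CAM had 0.976. Standardizing removes the size of a difference. The log2 differences between the shRNAs in dish and slice were -0.60 and -0.71 for ARL6IP5, -1.56 and -1.82 for MED12 and -1.97 and -2.29 for NTN4. NTN4, a secreted netrin, had 994 and 897 normalized counts in the control dish, 970.3 and 964 on the control slice, 254 and 229 with L1CAM shRNA in the dish and 227 and 170.1 with it on the slice. The 5 lower genes themselves correlated in pairs with r between 0.31 and 0.96 (median 0.90), and SORL1 followed their mean profile least (0.65).

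Closest to the profile of the 5 higher genes were CDH2 (r = 0.981), CLUAP1 (0.978) and LMO4 (0.972). Their log2 differences between the shRNAs in dish and slice were 2.12 and 2.16 for CDH2, 0.42 and 0.34 for CLUAP1 and 0.49 and 0.54 for LMO4. CDH2 encodes N-cadherin, and it had 28.4 and 31.1 normalized counts in the control dish, 15.3 and 21.4 on the control slice, 144 and 122 with L1CAM shRNA in the dish and 101 and 70.2 with it on the slice. Within the 5 higher genes r was between 0.39 and 0.95 (median 0.76), and NWD1 followed the mean least (0.68). These correlations are descriptions: the points share the same 8 libraries, and most of each profile is the difference between the shRNAs that chose the genes.

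The nearest genes on either side of the 10 were read from the RefSeq gene order. Of the 20, 13 were tested and 0 passed between the shRNAs in the dish or on the slice, where 0.307% and 0.646% of all tested genes passed. Their log2 differences were between -0.31 and 0.38 in the dish and between -0.82 and 0.56 on the slice, the 2 slice extremes being STRN3, which overlaps COCH, and TMEM38A, next to NWD1. On the slice, 1 of the 13 rose and 1 fell with control shRNA, where 6.8% and 8.03% of all tested genes did. With L1CAM shRNA 1 rose and 3 fell, where 10.1% and 11.2% of all tested genes did, so nothing is read from these calls. TMEM38A rose on the slice under both shRNAs, by 1.19 with control shRNA (limma adjusted p = 0.0142) and by 1.37 with L1CAM shRNA (limma adjusted p = 0.00628). PDHA1, next to GPR64, fell under both (-0.59 and -0.51, limma adjusted p = 0.0371 and 0.0484). With L1CAM shRNA PHKA2, also next to GPR64, fell (-0.80, limma adjusted p = 0.0146), as did NOM1, next to MNX1 (-0.64, limma adjusted p = 0.0477). Both genes next to SIRPB1 and both next to STRA6 were too low to test.

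Marker genes of brain cells were read in the same libraries because the slice is mouse tissue. Among 8 oligodendrocyte markers, MOG and OPALIN were at 0 in every library, and the 6 that were low in the dish summed to 0.94 to 0.98 normalized counts in the control dish, 0 to 2.75 in the L1CAM shRNA dish, 23.5 to 25.8 on the control slice and 14.3 to 27.7 on the L1CAM shRNA slice. All 8 summed to 4308 to 4667, 4848 to 5042, 5380 to 5391 and 5642 to 6399 in the same order. PLLP, which myelin also contains, had 1014 and 994 in the control dish. There the 6 low markers were near 0, whereas MBP (1293 and 1181) and CNP (3373 and 3126) were high. The sums over 8 microglial and macrophage markers, with P2RY12, C1QA and C1QB at 0, were between 5.66 and 16.6 in all libraries, beside SIRPB1. The 10 neuronal markers summed to 348 to 402 in the control dish, 362 to 370 on the control slice, 483 to 516 in the L1CAM shRNA dish and 375 to 422 on the L1CAM shRNA slice, and most of this was NEFL and GAD1, which the dish cells had too. Among them SLC17A7 was higher on the control slice (85.0 and 76.0) than in the control dish (18.6 and 40.6), as was SNAP25 (22.0 and 20.3 against 13.7 and 11.3). GAD1 (63.0 and 76.0 against 115 and 113), RBFOX3 (1.91 and 7.49 against 13.7 and 13.2) and SYT1 were lower there. With L1CAM shRNA SNAP25 overlapped between slice (19.4 and 8.33) and dish (17.4 and 14.1). The 7 astrocyte markers, with S100B at 0, summed to 2147 to 2405, 1425 to 1535, 1836 to 2211 and 1095 to 1468 in the order of the neuronal sums, most of it GJA1, and the sum was lower on the slice under both shRNAs. The 6 endothelial and mural markers summed to between 13.2 and 26.2 in all libraries. Of 9 markers of lung adenocarcinoma epithelium, 4 had a dish mean of at least 50. The part of slice RNA in the slice responses of the 10 genes was not tested.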

How the data were processed

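The 8 libraries fall into 4 groups of 2, by shRNA and culture, as the sample titles give them. The authors deposited a normalized signal per gene symbol, with the steps that counts divided by 1 size factor per library would have. Per the submitters' processing notes, FastQC 0.11.3, HTSeq 0.5.4 and DESeq2 were used with hg19 (GRCh37). The aligner is not given in the sources used here, nor is the gene annotation. All values (100%) were whole multiples of 1 step per library, within 1e-06. Counts recovered this way gave the read numbers and served edgeR 4.0.16 and DESeq2 1.42.0 as alternatives. 0 columns were left unused.

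Log2 of the normalized count plus 1 was fitted with limma 3.58.1 (R 4.3.3) for the 13010 genes that averaged 10 or more, over all 4 groups, with eBayes and an intensity trend. P-values are two-sided and adjusted by Benjamini-Hochberg within each contrast over all tested genes, at a threshold of 0.05. The fit was run on simulated counts that had the same dispersion in every gene and group. The groups here differed in spread (SD of the log2 replicate differences of 0.64 against 0.22 to 0.30). That run therefore does not show how the fit behaves on these libraries. Each gene has 1 estimate of its spread, common to the 4 groups of 2.

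The 10 genes and the lists were chosen with earlier results of these data known, as were the tests. L1CAM and the 10 genes are named throughout. Per list, up to 3 genes with the smallest p in either shRNA contrast or the control slice response are named, and per direction the 3 genes most like the mean profile. Other list genes that passed on the slice were named after their values were seen, as were those singled out among the nearest genes and the markers. A few list and marker genes are not reported here. Transcript lengths (GENCODE v29 principal transcripts) matched 11234 of the tested genes (86.3%). Promoter windows and gene order come from RefSeq on GRCh38.p14.

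Alternatives were a pseudocount of 10, a filter at 50 or none, TMM scaling, a replicate block, edgeR, DESeq2, a fit of the 2 groups compared, and each library left out. Reads carry no molecular identifiers, so read numbers overstate how many molecules were seen.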

Additional observations from a re-analysis of the deposited data

How the results depend on the processing

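With control shRNA, 1930 genes passed on the slice, against 6808 in a fit of the 2 groups alone and 7 to 6109 with 1 library left out, and 2 of the 10 genes, against 7 and 0 to 7. With L1CAM shRNA, 2775 genes passed, against 510 in a fit of the 2 groups alone and 341 to 7503 with 1 library left out, and 3 of the 10 genes, against 1 in that fit, 1 with no filter and 0 to 6. For the interaction, 0 to 4136 genes and 0 to 4 of the 10 passed with 1 library left out, and 0 under every other setting tried. The median difference of the 5 higher genes was 1.69 in the dish and 1.17 on the slice with a pseudocount of 10, and 1.49 to 2.06 and 1.33 to 1.47 with 1 library left out. That of the 5 lower genes on the slice was -2.57 to -2.28 with 1 library left out. Where an arm held 1 library, it was assumed to vary like the other groups. The cause of these shifts was not tested. Signs reversed in 13 of 470 settings of single genes, all with 1 library left out and none for a called value: the ranges were -0.25 to 0.36 for SIRPB1 and -0.49 to 0.22 for COCH with control shRNA, -0.094 to 0.60 for PLLP and -0.32 to 0.40 for GPR64 with L1CAM shRNA, and in the interaction -0.26 to 0.44 for PLLP, -0.48 to 0.086 for STRA6 and -0.077 to 0.36 for GPX3. COCH passed on the slice with L1CAM shRNA in DESeq2 (adjusted p = 0.0496). Replicate numbers did not pair the libraries (correlations of replicate differences between -0.377 and 0.194). A replicate block gave 1814 genes and 2 of the 10 with control shRNA, 2777 and 3 with L1CAM shRNA and 0 for the interaction, and changed no call on the 10. Depth limits GPR64, SIRPB1, STRA6, GPX3, NWD1 and MNX1 most, with under 50 reads in some libraries.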
